A study of Mus musculus with 2 samples.

Results

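*Gnas*, *Rtn4*, *Sepw1* and *Myadm* are 4 genes whose mRNAs carry tall peaks of Mbnl2 tags in the 3′UTR in mouse quadriceps muscle. They were picked because these peaks stood at the top of the peaks seen before in the same data, so the height of the peaks and the number of tags in them are descriptions here. The 4 genes are among 3888 protein-coding genes with at least 20 tags in the WT and *Mbnl1* KO tables together, and all 4 passed that minimum. Among 263 genes with at least 20 tags within 50 nt of the tallest point (the summit) of the 3′UTR, *Gnas* had the most tags in this window (182). *Rtn4* had 145, *Sepw1* 139 and *Myadm* 128. *Lars2* lies outside the set although its window held 172 tags, so these are not the 4 tallest 3′UTR peaks by tags. The next windows belonged to *Col1a1* (116 tags), *Ttn* (115) and *Aes* (107). Counted by the number of tags that overlap the summit, *Gnas* had 141, *Myadm* 111, *Sepw1* 109 and *Rtn4* 78, and *Lars2* (101), *Ttn* (99) and *Col1a1* (84) came before *Rtn4*.

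Muscleblind-like proteins are RNA-binding proteins with zinc fingers that recognise short motifs of the form YGCY, where Y is C or U. In the nucleus they regulate alternative splicing and polyadenylation, and in the cytoplasm they bind 3′UTRs and influence where mRNAs go and how long they last. In myotonic dystrophy these proteins are sequestered on expanded CUG or CCUG repeats, and the *Mbnl1* KO mouse models the loss of the main muscleblind protein of adult muscle. The 4 genes have unrelated products. *Gnas* encodes the alpha subunit of the stimulatory G protein, which couples hormone receptors to adenylyl cyclase, and its imprinted locus also makes longer proteins from upstream promoters. *Rtn4* encodes reticulon 4 (Nogo), which shapes tubules of the endoplasmic reticulum and, in the brain, inhibits axon growth. *Sepw1* encodes selenoprotein W, a small antioxidant protein abundant in muscle, whose mRNA carries in its 3′UTR the element that directs selenocysteine insertion at UGA. *Myadm* encodes the myeloid-associated differentiation marker, a membrane protein with MARVEL domains.

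Mbnl2 HITS-CLIP was performed on quadriceps of WT mice and of mice lacking *Mbnl1*, aged 15 to 16 weeks. The labels give the strain as C57BL/6, and the methods give a mixed background where they describe the breeding of the compound knockouts. In this assay protein and RNA are crosslinked by UV light in frozen tissue, the RNA is trimmed with RNase A (38.6 or 0.0386 U/ml), Mbnl2 is immunopurified with the antibody mAb 3B4, and the short RNA fragments that stay attached are sequenced as tags. The 3 mice of a genotype are merged in 1 table and the tables do not tell the RNase levels apart, so each genotype was 1 sample, the spread between mice is unknown, and genotypes were set side by side without a test. Whole muscle holds other cells besides fibres, and the knockout is constitutive, so it affects all of them. There were 343554 unique WT tags from 5176203 reads and 476543 unique *Mbnl1* KO tags from 50329234 reads. Each count was divided by all tags of its table, and the *Mbnl1* KO value was divided by the WT value to give the ratio. The 95% interval of a ratio is for counting error alone, so it compares the libraries and not the genotypes. Tags of which at least 70% are a single base made up 44.0% of the WT and 17.0% of the *Mbnl1* KO tags on assembled chromosomes, and this enters each ratio through the total. Ratios for tags of 30 nt or more are scaled by 154619 WT and 155835 *Mbnl1* KO tags, single-base tags included. Of the tags that are not single-base tags, 188766 in WT and 392681 in *Mbnl1* KO, 8.20% and 24.3% were that long. Of the skeletal muscle markers, 10 of 10 had at least 20 tags, with 3021 WT and 7880 *Mbnl1* KO tags per 1000000 summed. This minimum was also met by 5 of 5 fibroblast and 4 of 4 endothelial markers, so it does not set muscle fibres apart. RNA levels were not analysed here, so more bound tags per transcript and more transcript cannot be told apart.

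The sites below are the 30 nt of RNA centred on the main summit of each 3′UTR, read from mm9 on the strand of the gene, 5′ to 3′, with each YGCY tetramer in capitals. The tetramers searched were UGCU and UGCC, and with C as the first base CGCU and CGCC, overlaps counted, on this strand unless stated. They are shown because the peak of the tags and the motif meet in them.
Gnas: ccccucuucccuucagcuUGCUuagauguu
Rtn4: gcUGCCccacagUGCUugaccucugaguca
Sepw1: cccuccUGCUuUGCUuucccuuuccaccuc
Myadm: UGCUUGCUucuUGCUGCUGCUuucUGCUuc
They lie at chr2:174172029-174172058 on the plus strand (*Gnas*), chr11:29642586-29642615 on the plus strand (*Rtn4*), chr7:16502630-16502659 on the minus strand (*Sepw1*) and chr7:3299141-3299170 on the plus strand (*Myadm*), each in the last exon and in the 3′UTR. Each of these 30-mers occurs 1 time in the assembled chromosomes, on either strand. A UGCU lay within 3 nt of the summit at all 4, though for tags of 30 nt or more the *Rtn4* summit moved from 572 to 553 nt after the stop codon, away from the UGCU that begins at 569 nt. The tetramer nearest to the summit was 3 nt away at *Gnas* and 1 nt away at *Sepw1*, and at *Rtn4* and *Myadm* it covered the summit. At all 4 the site also held UGCUU, a match noticed after the sequences were seen. A YGCY was present in the 30 nt around the summit in 82.5% of the 263 genes, against 27.6% of 301489 adjoining 30-nt pieces of the 3′UTRs of all 3888 genes. For UGCUU the shares were 44.9% and 5.05%. The same tetramers on the opposite strand were in 0 of the 4 sites, in 13.7% of the sites at summits and in 23.4% of the 3′UTR pieces.

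The further peaks of these 3′UTRs were examined in the same way. Peaks of at least 20 overlapping tags and at least 50 nt apart were listed, which gave 1 further peak in *Gnas*, *Sepw1* and *Myadm* and 4 in *Rtn4*. Each of the 7 passed this minimum through its *Mbnl1* KO tags, so their counts are given below without a ratio. Of these 7 sites of 30 nt, 3 held a YGCY. Those of *Myadm* and *Sepw1*, and the *Gnas* site without a tetramer, are shown as the second in rank in their 3′UTR.
Myadm second peak: aaagcaUGCCUGCCUGCCUGCCUGCCuuag
Sepw1 second peak: cuacccgugcacgcagccUGCCcUGCCccc
Gnas second peak: gaaacguaauuguacaagcaguuggucacc
They lie at chr7:3298111-3298140 (plus strand), chr7:16502711-16502740 (minus strand) and chr2:174171940-174171969 (plus strand). The *Myadm* site holds 5 UGCC tetramers in a row, which is a short CCUG repeat. The *Sepw1* site holds 2 UGCC tetramers and no UGCU. Whether Mbnl2 contacts the tetramers themselves was not measured, since the tags give the place of a fragment and not the crosslinked base.

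**Figure D1:**
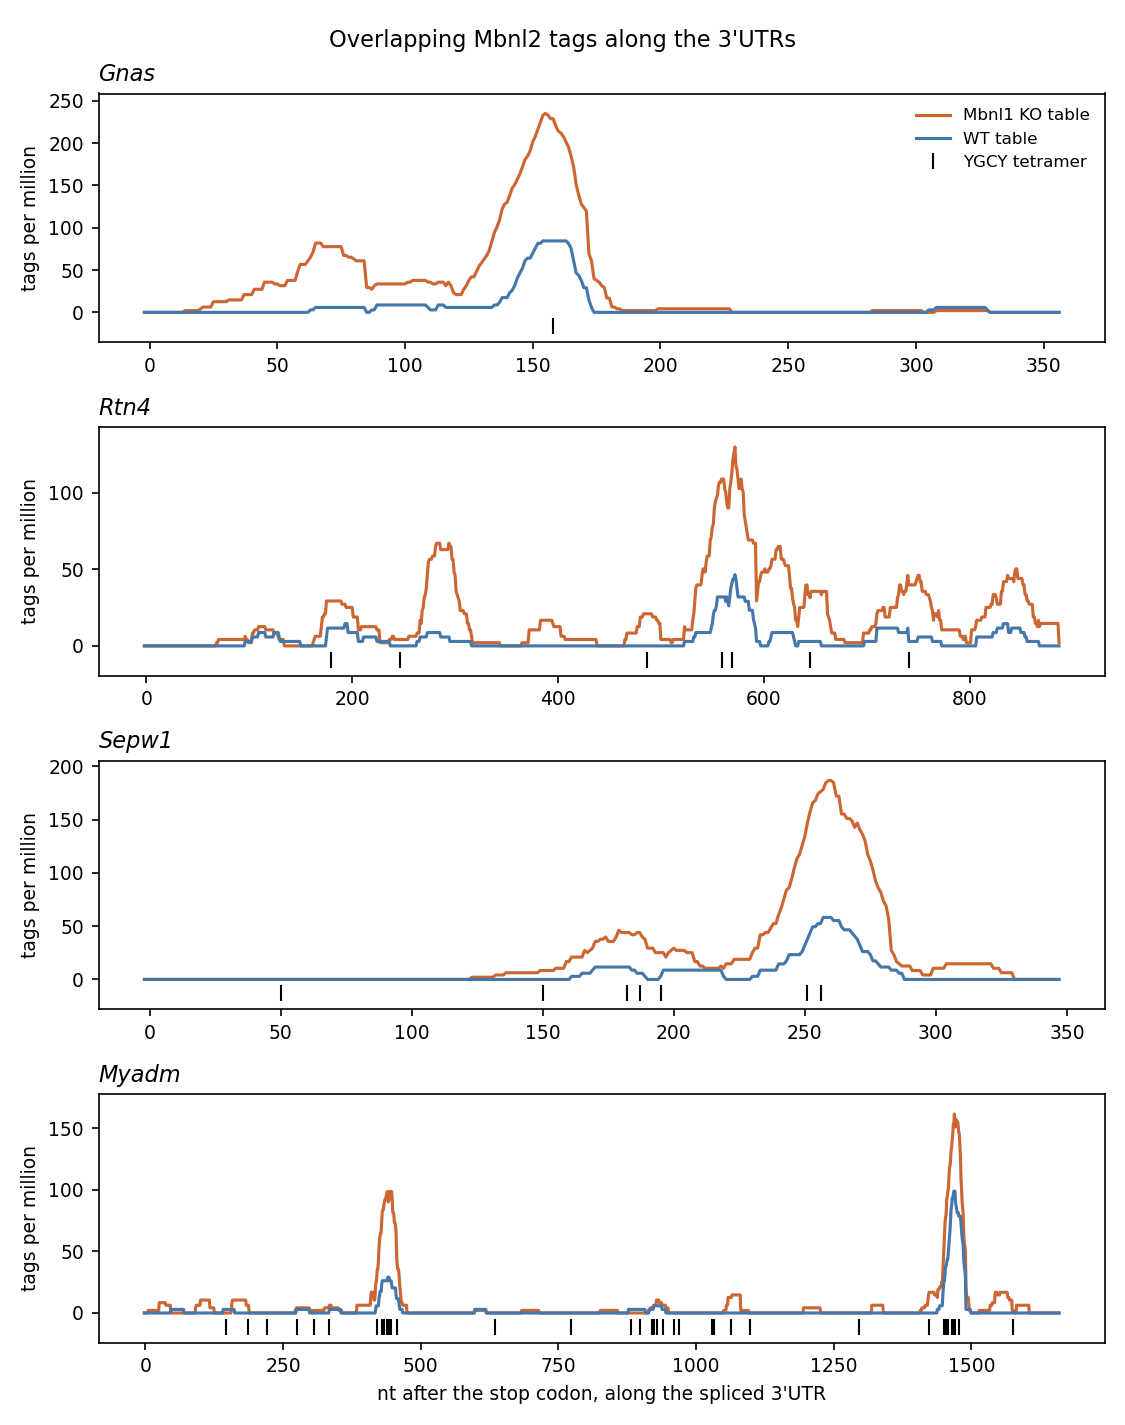
Number of overlapping Mbnl2 tags per 1000000 tags of the table (y axis) against the distance in nt after the stop codon along the spliced 3′UTR (x axis) for the 4 genes, with the *Mbnl1* KO table in orange, the WT table in blue and black marks for YGCY tetramers. The main summits lie 155, 572, 260 and 1469 nt after the stop codon of *Gnas*, *Rtn4*, *Sepw1* and *Myadm*, and the WT summit is within 3 nt of the *Mbnl1* KO summit in each.

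At *Gnas* (chr2:174109821-174172245, plus strand) 50 WT and 250 *Mbnl1* KO tags lay over the gene on its strand, or 146 and 525 tags per 1000000. The ratio was 3.60 (interval 2.65 to 4.99). The 3′UTR, which is 356 nt long, held 39 WT and 200 *Mbnl1* KO tags, and the 101-nt window around the summit held 34 and 148 (KO/WT ratio 3.14, interval 2.15 to 4.70). For tags of 2 or more reads the window ratio was 1.54 (0.986 to 2.49), and without single-base tags as well 1.28 (0.819 to 2.07), so under these settings its interval includes 1, while for tags of 30 nt or more it was 10.7. The summit was 155 nt after the stop codon and 201 nt before the end of the 3′UTR, with 29 WT and 112 *Mbnl1* KO tags over it, and the peak was 29 nt wide at 50% of its height. In WT alone 29 tags lay over each position from 154 to 163 nt, and the middle of this run is 3 nt downstream of the summit. A second, lower peak 66 nt after the stop codon had 2 WT and 39 *Mbnl1* KO tags over it. This site holds no YGCY. Outside the last exon, 10 exon blocks between the first exon of the G protein subunit and the last exon held 1 WT and 24 *Mbnl1* KO tags, of which 11 *Mbnl1* KO tags fell in the block of 180 nt from 174170884 to 174171063. The 6 upstream exon blocks, in the region of the promoters for the neuroendocrine secretory protein and the extra-large form, had 0 tags in both tables over 6006 nt, which allows up to 8.73 WT and 6.30 *Mbnl1* KO tags per 1000000.

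At *Rtn4* (chr11:29592947-29644331, plus strand) the tags were spread over more of the 3′UTR. The gene held 64 WT and 351 *Mbnl1* KO tags (KO/WT ratio 3.95, interval 3.02 to 5.25), and its 3′UTR of 887 nt held 51 and 308 (KO/WT ratio 4.35, interval 3.23 to 5.98). The main peak lay 572 nt after the stop codon and 315 nt before the end, with 16 WT and 62 *Mbnl1* KO tags over it, and was 40 nt wide at 50% of its height, the widest of the 4. Its window held 24 WT and 121 *Mbnl1* KO tags (KO/WT ratio 3.63, interval 2.33 to 5.89). This ratio was 1.86 with 1 tag kept per 5′ end, 2.08 scaled by the median gene, 7.41 for reads in place of tags and 16.6 for tags of 30 nt or more, which left 4 WT tags in the window. The other 4 peaks lay 283, 623, 740 and 845 nt after the stop codon. They had 3 WT and 32 *Mbnl1* KO, 3 and 25, 4 and 22, and 4 and 24 tags over them. Of their sites, only that at 740 nt held a YGCY. The peak at 623 nt lies at the first position that the spacing of 50 nt allows, just past the main window. Its tags can also overlap that window, and whether it is a separate peak was not tested. The longest annotated 3′UTR of the gene extends 1415 nt further, and this extension had 0 tags in both tables. *Rtn4* makes a short form (Nogo-C, 199 codons in the annotation) from its own promoter and long forms (Nogo-A and Nogo-B) from an upstream one. The first exon of the short form (chr11:29618563-29618882) had 0 WT and 7 *Mbnl1* KO tags. The exon of 2361 nt that is particular to Nogo-A and the upstream first exon had 0 tags in both tables. The 3′UTR is shared by these forms, so its tags cannot be given to one of them.

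At *Sepw1* (chr7:16502557-16507751, minus strand) nearly every tag lay in the last exon, with 27 WT and 144 *Mbnl1* KO tags there out of 28 and 153 over the gene (gene ratio 3.94, interval 2.62 to 6.12). The annotated coding sequence of 264 nt had 0 WT and 4 *Mbnl1* KO tags. The 3′UTR of 347 nt is split by an intron just after the stop codon. The summit was 260 nt after the stop codon and 87 nt before the end, the shortest distance to the end among the 4, with 20 WT and 89 *Mbnl1* KO tags over it. Its window held 23 WT and 116 *Mbnl1* KO tags (KO/WT ratio 3.64, interval 2.31 to 5.96). It ran from 2.08 scaled by the median gene to 8.60 for tags of 30 nt or more. The second peak, 179 nt after the stop codon, had 4 WT and 22 *Mbnl1* KO tags over it. The element for selenocysteine insertion was not located in the sequence here, so its place relative to the peaks was not tested.

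At *Myadm* (chr7:3289039-3299346, plus strand) there were 60 WT and 218 *Mbnl1* KO tags (KO/WT ratio 2.62, interval 1.96 to 3.55), of which 59 and 217 were in the last exon, and the 3 exon blocks before it had 0. The 3′UTR of 1659 nt held 56 WT and 199 *Mbnl1* KO tags. The summit lay 1469 nt after the stop codon and 190 nt before the end, with 34 WT and 77 *Mbnl1* KO tags over it and a width of 31 nt. The window held 37 WT and 91 *Mbnl1* KO tags, the most of the 4 in WT and the fewest in *Mbnl1* KO, and its ratio was the lowest, at 1.77 (interval 1.20 to 2.67). With only tags of at least 2 reads this ratio was 0.976, and 0.820 when single-base tags were dropped too, so its direction depends on these choices. For tags of 30 nt or more it was 5.73. The interval included 1 under both settings with a minimum of 2 reads. It also did when scaled by the median gene (1.02, interval 0.686 to 1.53) and with identical tags collapsed (1.15). The same held with 1 tag kept per 5′ end (1.19) and without single-base tags (1.21). The interval lay above 1 in 12 of the 18 settings. The second peak, at the CCUG repeat 439 nt after the stop codon, had 9 WT and 47 *Mbnl1* KO tags over it.

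Over the gene bodies together, the 4 genes held 202 WT and 972 *Mbnl1* KO tags, 588 and 2040 per 1000000, and the ratio was 3.47 (interval 2.98 to 4.06). With only tags of at least 2 reads it was 2.08 (1.71 to 2.54), and with single-base tags also left out 1.74. With identical tags collapsed it was 2.49. For tags of 30 nt or more it was 9.88, with single-base tags in the totals. So the size of the ratio depends on how tags are counted and scaled. The ratio was at least 2 at 4 of the 4 genes, against 41.6% of the 3888 genes, and the interval lay above 1 at all 4, against 38.6%. At *Myadm* this was lost for tags of 2 or more reads (1.35, interval 0.954 to 1.95) and without single-base tags as well (1.13, interval 0.801 to 1.64). In the peak windows together, 118 WT and 476 *Mbnl1* KO tags gave a ratio of 2.91 (interval 2.37 to 3.59). There the ratio was at least 2 at 3 of the 4 genes, with *Myadm* below it, against 82.1% of the 263 windows, and the interval lay above 1 at 4 of 4, against 71.1%. Since the peaks were chosen by height in tables of which *Mbnl1* KO gives more tags, nothing is read from these counts. The median ratio was 1.75 over the 3888 genes and 3.08 over the 263 windows, so the window ratio of *Myadm* was below the median of windows and those of the other 3 were above it. Scaled so that the median gene is at 1, the ratio was 1.99 over the gene bodies and 1.67 in the windows.

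**Figure D2:**
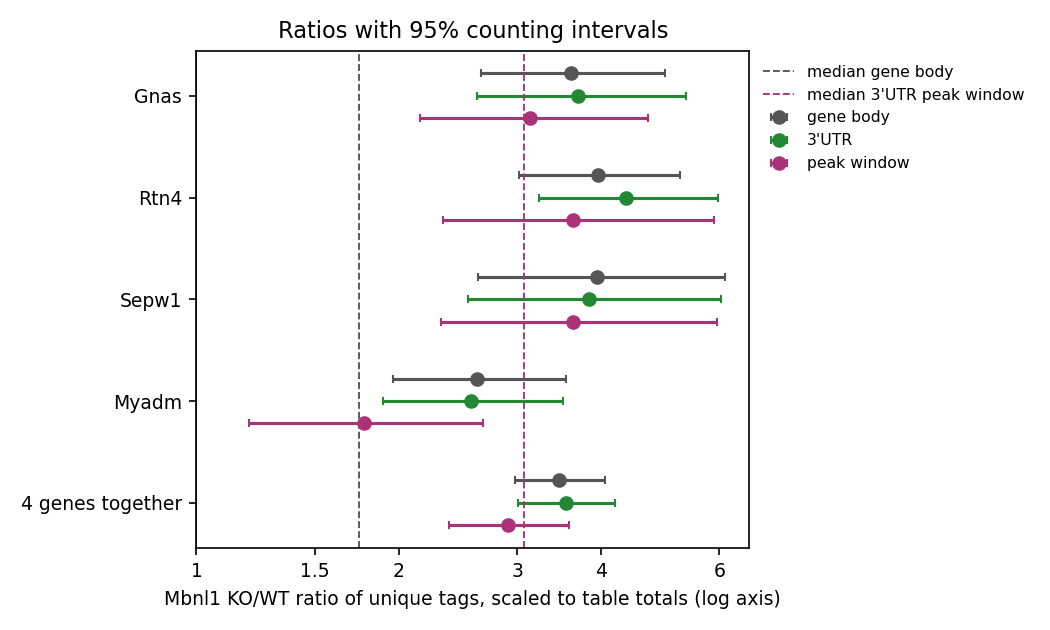
*Mbnl1* KO/WT ratio of unique tags scaled to table totals (log axis) for each gene and the 4 together, over the gene body (grey), the 3′UTR (green) and the peak window (purple), with bars for the 95% counting interval. Every point is above 1, dashed lines mark the medians of all genes (1.75) and of all 3′UTR peak windows (3.08), and the *Myadm* window (1.77) is the lowest point.

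Most tags of the 4 genes were in the 3′UTR in both tables, with 85.6% in WT (interval 80.0 to 90.2) and 87.6% in *Mbnl1* KO (85.3 to 89.6). The shares for single genes, tables pooled, ran from 79.7% at *Gnas* to 94.5% at *Sepw1*, against a median of 80.5% over the 263 genes. Coding sequence held 8 WT tags (3.96%, interval 1.73 to 7.65) and 74 *Mbnl1* KO tags (7.61%, interval 6.02 to 9.46). Introns held 18 WT tags (8.91%, interval 5.37 to 13.7) and 30 *Mbnl1* KO tags (3.09%, interval 2.09 to 4.38). Relative to 3′UTR tags, intron tags had a *Mbnl1* KO/WT ratio of 0.339 (odds ratio, exact interval 0.178 to 0.662), and coding tags one of 1.88 (0.884 to 4.60), which includes 1. The genes were picked for their 3′UTR peaks in these same tags, so nothing is read from these odds ratios. They were not computed over other genes or without single-base tags. Of the intron tags, 10 WT and 15 *Mbnl1* KO tags were at *Rtn4* and 6 and 9 at *Gnas*. The opposite strand of the 4 genes held 9 WT and 3 *Mbnl1* KO tags, and 8 of those WT tags were at *Rtn4*. Per length, the 3′UTR of *Gnas* carried 10.6 WT and 55.7 *Mbnl1* KO tags per 100 nt, counted in 1 reference transcript with the stop codon included (38 and 200 tags over 359 nt). The lowest 3′UTR density was that of *Myadm*, at 3.37 WT and 12.0 *Mbnl1* KO tags per 100 nt, and *Rtn4* (5.73 and 34.6) and *Sepw1* (7.71 and 41.1) lay between.

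The share of a gene's tags that fell in its 101-nt window was used to describe how far the tags gather at 1 place. It was highest at *Sepw1*, with 82.1% of WT tags (interval 63.1 to 93.9) and 75.8% of *Mbnl1* KO tags (68.2 to 82.4). At *Gnas* it was 68.0% (53.3 to 80.5) and 59.2% (52.8 to 65.4). At *Myadm* it was 61.7% (48.2 to 73.9) and 41.7% (35.1 to 48.6). It was lowest at *Rtn4*, at 37.5% (25.7 to 50.5) and 34.5% (29.5 to 39.7), close to the median of 34.7% over the 263 genes with the tables pooled. For the 4 genes together the share was 58.4% in WT (51.3 to 65.3) and 49.0% in *Mbnl1* KO (45.8 to 52.2). The WT share was the higher one at each of the 4 genes with this window, but not under each setting. With 100 nt on each side, *Gnas* had 72.0% in WT and 78.0% in *Mbnl1* KO, and *Rtn4* had 39.1% and 42.7%. At *Rtn4* the shares were also turned for tags of 30 nt or more (22.2% and 36.2%) and for reads in place of tags (17.8% and 36.0%). Taken as an odds ratio of window tags to the other tags of the gene, which needs no scaling between the tables, *Mbnl1* KO/WT was 0.683 for the 4 genes together (exact interval 0.496 to 0.939) and 0.447 at *Myadm* (0.236 to 0.831). The intervals of *Gnas* (0.334 to 1.35), *Rtn4* (0.490 to 1.60) and *Sepw1* (0.189 to 2.02) include 1. Without *Myadm* the odds ratio was 0.786 (0.537 to 1.15), still below 1 but with an interval that includes it. With a window of 100 nt on each side, which takes in the second peaks of *Gnas* and *Sepw1*, the odds ratio was 0.939 (0.678 to 1.30), and for tags of 30 nt or more it was 0.886 (0.478 to 1.62). These odds ratios were chosen after the values were seen. The windows were placed on the summits of these same tags, and each genotype is 1 merged table. The odds ratios therefore describe these counts, and nothing about the genotypes is read from them.

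**Figure D3:**
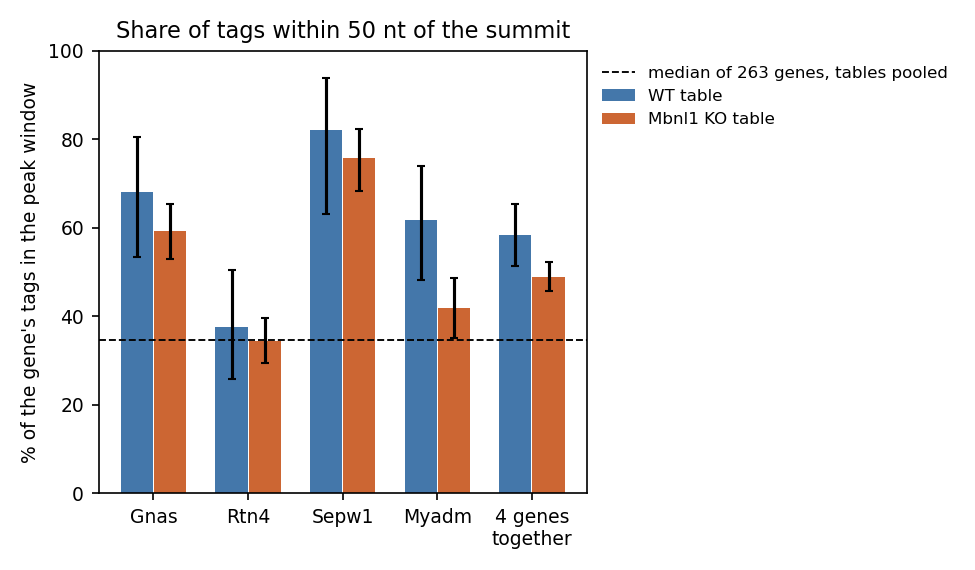
Percent of each gene's tags that lie in the window of 50 nt on each side of the summit, for the WT table (blue) and the *Mbnl1* KO table (orange), with black bars for the 95% Clopper-Pearson interval and a dashed line for the median of 263 genes (34.7%). *Sepw1* has the highest shares (82.1% and 75.8%), *Rtn4* lies near the dashed line, and of the 4 genes only at *Myadm* is the WT share (61.7%) above the upper end of the *Mbnl1* KO interval (48.6%) with the *Mbnl1* KO share (41.7%) below the lower end of the WT interval (48.2%).

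The place of the peak along the 3′UTR was not shared by the 4 genes. As a percent of the 3′UTR length the summit was at 43.5% in *Gnas*, 64.5% in *Rtn4*, 74.9% in *Sepw1* and 88.5% in *Myadm*, against a median of 48.7% (quartiles 25.1 to 76.9) over 262 genes. All 4 summits were closer to the 3′UTR end than the median distance of 433 nt, at 201, 315, 87 and 190 nt, but the *Rtn4* value is to its shorter annotated end, and to the longest end, 1415 nt further, it lies beyond that median. For *Gnas* (356 nt) and *Sepw1* (347 nt) the whole 3′UTR is shorter than 433 nt, so this was fixed in advance. The 3′UTRs of *Gnas* and *Sepw1* were short, with 89.7% and 90.1% of the 263 genes having longer ones, and the median was 1278 nt. The summits were at the same place in both tables. Taken from WT tags alone they were 3, 0, 1 and 0 nt from the pooled summit in *Gnas*, *Rtn4*, *Sepw1* and *Myadm*. The distances at *Gnas* and *Sepw1* come from ties. There the pooled summit had as many WT tags over it as the WT summit (29 and 20). From *Mbnl1* KO tags alone the distance was 0 nt in all 4, which says little because these tags make up most of each pooled summit. Over 67 genes with at least 10 tags of each table in the window, the WT and *Mbnl1* KO summits were 2 nt apart in the median, and within 3 nt in 64.2%.

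The tags that make up the peaks began at many positions. In the *Gnas* window the 34 WT tags had 19 different 5′ ends and the 148 *Mbnl1* KO tags 46. The numbers were 20 and 47 at *Rtn4*, 14 and 41 at *Sepw1* and 22 and 33 at *Myadm*. Of the tags in the windows, 2 were single-base tags, both *Mbnl1* KO tags at *Gnas*. The tags were longer in *Mbnl1* KO. The median length was 31 nt in each *Mbnl1* KO window, and 22.5 nt at *Gnas*, 23 nt at *Rtn4*, 25 nt at *Sepw1* and 24 nt at *Myadm* in WT. Tags of at least 30 nt made up 23.5% of WT tags (interval 10.7 to 41.2) and 58.1% of *Mbnl1* KO tags (49.7 to 66.2) at *Gnas*. They made up 16.7% (4.74 to 37.4) and 55.4% (46.1 to 64.4) at *Rtn4*, 39.1% (19.7 to 61.5) and 67.2% (57.9 to 75.7) at *Sepw1* and 24.3% (11.8 to 41.2) and 57.1% (46.3 to 67.5) at *Myadm*. The same direction held over the 263 windows, at 19.3% and 47.6%, so it is not particular to these genes. It also held over all tags that are not single-base tags, at 8.20% and 24.3%. With single-base tags included it was reversed, at 154619 of 343554 WT tags and 155835 of 476543 *Mbnl1* KO tags. The median length over all tags was 24 nt in both. The ratio of 9.88 for tags of at least 30 nt is scaled by totals with single-base tags, unlike the shares of 8.20% and 24.3%. A ratio for such tags without single-base tags was not computed, and the part of tag length in the ratios was not tested.

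The number of YGCY tetramers in the 101-nt windows ran from 1 to 8. *Gnas* had 1, the only one in its whole 3′UTR, and *Rtn4* had 2, against 5 in the other 789 nt of its 3′UTR. *Sepw1* had 2, which is 1.98 per 100 nt, against 2.01 per 100 nt in the rest. *Myadm* had 8, all UGCU, or 7.92 per 100 nt, against 1.86 in the rest. So with this window the density was above that of the rest of the 3′UTR in *Gnas*, *Rtn4* and *Myadm* and level with it in *Sepw1*. These densities depend on the window. With 25 nt on each side they were 1.96 per 100 nt at *Gnas*, 3.92 at both *Rtn4* and *Sepw1* and 13.7 at *Myadm*. With 100 nt on each side they were 0.498 at *Gnas*, 1.99 at *Rtn4*, 2.49 at *Sepw1* and 3.98 at *Myadm*. Over all 263 windows the mean was 2.72 per 100 nt and the median 3 per window, against a mean of 1.20 per 100 nt in 87697 windows of the same length in 3′UTRs. At least 2 tetramers were in 76.8% of peak windows and 33.3% of 3′UTR windows, and at least 8 in 1.14% and 0.0718%. The *Gnas* window thus had fewer tetramers than 76.8% of the peak windows, although its peak was the tallest. Counting GCUU instead, which overlaps the UGCU tetramer, *Gnas* had 3, *Rtn4* 2, *Sepw1* 2 and *Myadm* 4. At least 2 were in 46.8% of peak windows and 8.22% of 3′UTR windows, and all 3 of *Gnas* were in the window. The YGCY letters on the opposite strand were found 1 time in each window of *Gnas*, *Rtn4* and *Sepw1* and 0 times in that of *Myadm*. The windows held more C than the rest of the 3′UTR at *Gnas* (28.7% against 15.9%), *Rtn4* (24.8% against 14.4%) and *Sepw1* (38.6% against 32.1%) and less at *Myadm* (20.8% against 25.4%). A motif match describes the sequence and shows neither a site nor a cause of the tags.

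**Figure D4:**
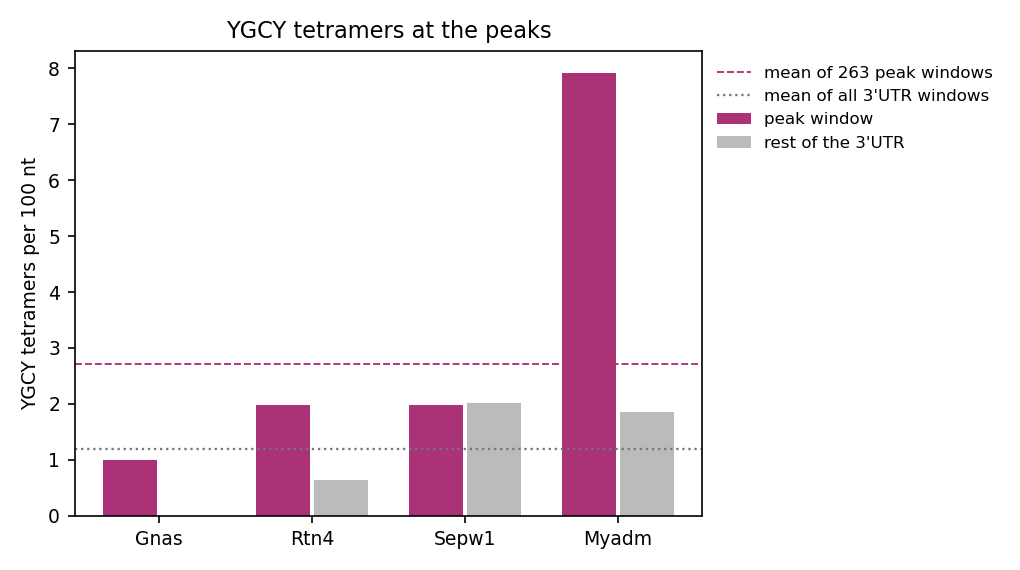
YGCY tetramers per 100 nt in the peak window (purple) and in the rest of the 3′UTR (grey) of each gene, with the mean of the 263 peak windows as a dashed line (2.72) and the mean of the 87697 3′UTR windows as a dotted line (1.20). *Myadm* stands highest at 7.92, *Gnas* has 0 outside its window, and in *Sepw1* the bars are level (1.98 and 2.01).

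The other genes of the pathways to which the 4 products belong were counted over the gene body in the same way. Of 34 other genes of G protein and cAMP signalling, 20 had at least 20 tags, the ratio was at least 2 in 9, the interval lay above 1 in 11, against 41.6% and 38.6% of all 3888 genes, and the median ratio was 1.91, near that of all genes (1.75). Prkar1a, a regulatory subunit of protein kinase A, had 35 WT and 132 *Mbnl1* KO tags (2.72, interval 1.86 to 4.07). Akap13, which anchors that kinase, had 38 and 117 (2.22, interval 1.53 to 3.29). The cAMP phosphodiesterases Pde4d (118 and 234 tags, 1.43, interval 1.14 to 1.80) and Pde4b (38 and 56 tags, 1.06, interval 0.691 to 1.65) had lower ratios than *Gnas* (interval from 2.65).

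Of 22 other reticulon, Nogo receptor and endoplasmic reticulum shaping genes, 8 had at least 20 tags, the ratio was at least 2 in 5, the interval lay above 1 in 6 (41.6% and 38.6% of all genes), and the median was 2.60. Reep5, a protein that curves the membrane of the endoplasmic reticulum, had 15 WT and 66 *Mbnl1* KO tags (3.17, interval 1.79 to 5.98). The ratio was 2.02 at the atlastin gene Atl2, a GTPase that fuses the tubules, and 1.76 at Reep1. The other reticulons in this count had lower ratios than *Rtn4* (interval from 3.02). Rtn3 had 17 WT and 36 *Mbnl1* KO tags (1.53, interval 0.836 to 2.90), and Rtn1 had 18 and 10 (0.401, interval 0.165 to 0.915), with 7.14% of its tags in the 3′UTR against 86.5% in *Rtn4*.

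Of 22 other selenoprotein and selenocysteine genes matched in the annotation, 3 had at least 20 tags, 2 of them with a ratio of at least 2 and an interval above 1 (41.6% and 38.6% of all genes). Sep15, a selenoprotein of the endoplasmic reticulum, had 10 WT and 61 *Mbnl1* KO tags (4.40, interval 2.24 to 9.63). Sepp1, which carries selenium in plasma, had 4 and 23 (4.15, interval 1.42 to 16.5), and Txnrd1, a thioredoxin reductase, had 8 and 15 (1.35, interval 0.538 to 3.68). Of 23 other MARVEL family genes, 5 had at least 20 tags, and 3 of them had a ratio of at least 2 and an interval above 1, beside the same all-gene shares of 41.6% and 38.6%. Sypl and Syngr2, relatives of synaptophysin, had 11 WT and 89 *Mbnl1* KO tags (5.83, interval 3.11 to 12.1) and 7 and 52 (5.36, interval 2.42 to 14.0). Sypl2, which is found at the triad of muscle, had 6 and 25 (3.00, interval 1.20 to 8.95), and Mal2 had 10 and 15 (1.08, interval 0.454 to 2.69). Synpr, named after its values were seen, had 16 and 7 (0.315, interval 0.110 to 0.810).

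Markers of other cell types were also counted. The 5 fibroblast markers summed to 200 WT and 884 *Mbnl1* KO tags, of which Col1a1 gave 123 and 471, more than all but Ttn of the 10 fibre markers. The lists of 4 endothelial markers summed to 61 and 113, of 4 Schwann cell markers to 11 and 53, of 4 macrophage markers to 15 and 23 and of 4 adipocyte markers to 3 and 25. The hepatocyte markers, taken as absent, had 3 and 0. Since *Gnas*, *Rtn4* and *Myadm* are expressed in many cell types, the part of these cells in their tags was not tested.

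Genes most like the 4 were sought among 133 genes with at least 100 tags by their 3′UTR share, window share and log2 ratio, each divided by its SD over genes. The closest were Isca1 (distance 0.695), AK157302 (0.706), Casq1 (0.724), Ppp1r2 (1.03) and Atp5a1 (1.05). Isca1 and AK157302 lie at different loci on chromosome 13, and their windows are identical in 101 of 101 bases, so their tags cannot be told apart. Casq1, the calsequestrin of fast muscle, had 19 WT and 83 *Mbnl1* KO tags (KO/WT ratio 3.15, interval 1.90 to 5.49), of which 51.0% were in its window, 225 nt after the stop codon.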

How the data were processed

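Mbnl2 HITS-CLIP tags of quadriceps muscle from 3 WT and 3 *Mbnl1* KO mice were used, the mice of a genotype being merged. The authors dropped low-quality and very short reads, used BWA (version not given in the sources used here) against mm9, and collapsed likely PCR duplicates to unique tags. The deposited count of a tag says how many reads it stands for and is not normalized.

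Tags overlapping a region on the strand of the gene were counted in mm9 GENCODE vM1 with scipy 1.17.1, pandas 2.3.3 and numpy 2.4.6 in Python 3.11.15, after indexing the genome with samtools 1.23.1. Figures were drawn with matplotlib 3.10.9. The summit is the 3′UTR position with the most overlapping tags, tables pooled, and the window 50 nt on each side. Ratios and shares have exact Clopper-Pearson intervals at 95%, and odds ratios exact conditional intervals, all for counting error only. The depth of 343554 WT tags limits ratios at places with few WT tags. A count of 0 was read as up to 3 tags. No test between genotypes was made. Counting and intervals were tested on simulated data.

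The 4 genes, the gene lists and markers were chosen with earlier results of these data known. Besides the 4 genes, the named genes are the 4 with the next most window tags, the 5 closest by distance and up to 4 per list with the most tags; *Rtn1*, *Synpr* and exon counts were singled out after their values were seen. Of the selenoprotein list 5 entries were not matched by name and 1 (*Msrb1*) was the same gene as *Sepx1*. Alternatives were other scalings, duplicate handling, tag lengths, read minimums, windows, summits and motifs. Positions in the supplementary peak table served as 1 alternative, and none of its values was used.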

Additional observations from a re-analysis of the deposited data

How the results depend on the processing

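The summed ratios stayed above 1, with the interval above 1, under every alternative run, while their size depended on counting and scale. The ratio in the windows (2.91) and over the gene bodies (3.47) was 4.03 and 4.81 as raw tags and 1.67 and 1.99 scaled by the median gene. It was 1.94 and 2.49 with identical tags collapsed and 1.75 and 2.29 with 1 tag kept per 5′ end. For tags of 30 nt or more it was 9.36 and 9.88, scaled by totals that include single-base tags. Without single-base tags it was 1.98 and 2.43, for tags of 2 or more reads 1.67 and 2.08, and with both of these settings 1.40 and 1.74. For the difference among these settings the cause was not tested. At *Myadm* the window ratio of 1.77 turned to 0.976 for tags of 2 or more reads and 0.820 without single-base tags as well. The share of *Mbnl1* KO tags in the windows (49.0%) was 44.8% with identical tags collapsed, 38.1% with 1 tag per 5′ end, 53.6% for tags of 30 nt or more, 45.6% counting by midpoint, 43.6% with 25 nt and 60.4% with 100 nt on each side. The WT share (58.4%) was 49.7% with 1 tag per 5′ end. YGCY tetramers (3.22 per 100 nt over the 4 windows) were 5.88 with 25 nt on each side and 0.743 on the opposite strand. The median place of the summits, 416 nt after the stop codon, ran from 406 to 416, and the *Rtn4* summit moved from 572 to 553 nt for tags of 30 nt or more. No paired analysis was possible because the mice were merged before deposit, which also means that no mouse could be left out in turn. The WT depth limits what can be said of the further peaks, which rest on 2 to 9 WT tags.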
